A study of Mus musculus with 9 samples.

Results

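Folate enzymes of the cytosol and the mitochondrion were examined in the ventricles of postnatal day 7 (P7) mice with and without Cre-mediated deletion of Arid1a, a DNA-binding subunit of SWI/SNF chromatin remodelling complexes. The 9 enzymes were chosen by name, with earlier results of these libraries known, by a rule that used no measured value. They comprised 4 cytosolic enzymes (Aldh1l1, Mthfd1, Shmt1 and Tyms) and 5 mitochondrial enzymes (Aldh1l2, Mthfd1l, Mthfd2, Mthfd2l and Shmt2), out of 38293 gene identifiers in the count table. All 9 passed the filter on low counts, as did 15318 genes in total. The control group held 5 littermate ventricle samples homozygous for the floxed Arid1a allele without Cre (Arid1a f/f control), and the mutant group held 4 samples with the same alleles plus Cre (aMHC-Cre;Arid1a f/f cKO, written here as cKO). Cre was driven by the promoter of Myh6, which is active in cardiomyocytes, whereas RNA came from whole ventricle with its fibroblasts, endothelial cells and other cells. Because controls carried no Cre, the presence of Cre and the loss of Arid1a cannot be told apart.

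Tetrahydrofolate carries single carbons between serine, glycine, formate, purines, thymidylate and methionine. The pathway runs in parallel in both compartments. In proliferating cells the mitochondrial enzymes usually break serine down to glycine and formate, and the cytosolic enzymes use that formate for purine and thymidylate synthesis. Both compartments also hold an enzyme of the ALDH1L family, which removes single carbons from the pool by oxidising the formyl group of formyl-tetrahydrofolate to carbon dioxide while making NADPH. Cytosolic ALDH1L1 is abundant in liver and in astrocytes, and the mitochondrial ALDH1L2 is found in heart among other tissues.

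Libraries held 31011055 to 40073801 counted reads. Arid1a reached 128 to 148 counts per 1e6 counted reads (CPM) in controls and 100 to 113 CPM in cKO libraries, which put its log2 fold change at -0.39 (SE 0.06, adjusted p = 0.00132, quasi-likelihood test in edgeR). Counts covered the whole Arid1a gene, and its floxed segment was not counted apart. The ribosomal protein gene Rps3a3 split the 9 libraries into a low set (control replicates 1 and 2 and cKO replicates 1 to 3, at 0.345 to 0.521 CPM) and a high set (control replicates 3 to 5 and cKO replicate 4, at 99.7 to 112 CPM). In the low set alone, Arid1a had a log2 fold change of -0.33 (adjusted p = 0.0822). Xist, transcribed from the inactive X chromosome, was high in control replicates 2 and 3 and in cKO replicates 3 and 4, so both groups held libraries with and without it.

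All 4 cytosolic enzymes had higher fitted levels in cKO than in control ventricles, whereas the 5 mitochondrial enzymes went in both directions. Aldh1l1, Shmt1, Mthfd1 and Mthfd2 rose and Aldh1l2 fell, at an adjusted p under 0.05. Mthfd1l, Tyms, Shmt2 and Mthfd2l did not pass. Thus 5 of 9 enzymes passed, 4 higher and 1 lower, against 16.3% of the 15318 genes tested, 8.25% higher and 8.03% lower. When a fold above 1.5 was also required (a gene meeting both is referred to as called), 1 enzyme was called higher, Aldh1l1, and 1 was called lower, Aldh1l2, against 6.72% of all genes in either direction, 4.01% higher and 2.72% lower. By compartment, 3 of 4 cytosolic enzymes passed with higher levels, and their median log2 fold change was 0.46. Of the 5 mitochondrial enzymes 1 passed with a higher and 1 with a lower level, and their median was 0.19. The median over all tested genes was 0.01, and 51.5% of them had a log2 fold change above 0. Within the Rps3a3-low libraries the mitochondrial median was -0.02, and with each library left out it ran from 0.0806 (without cKO replicate 2) to 0.28 (without cKO replicate 1). Groups did not overlap for 3 of the 9 enzymes, Aldh1l1 and Shmt1 higher and Aldh1l2 lower, against 16.7% of all genes, 8.16% higher and 8.58% lower. In ventricular RNA, a change in the number of cells of a type and a change in RNA per cell cannot be told apart.

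**Figure D1:**
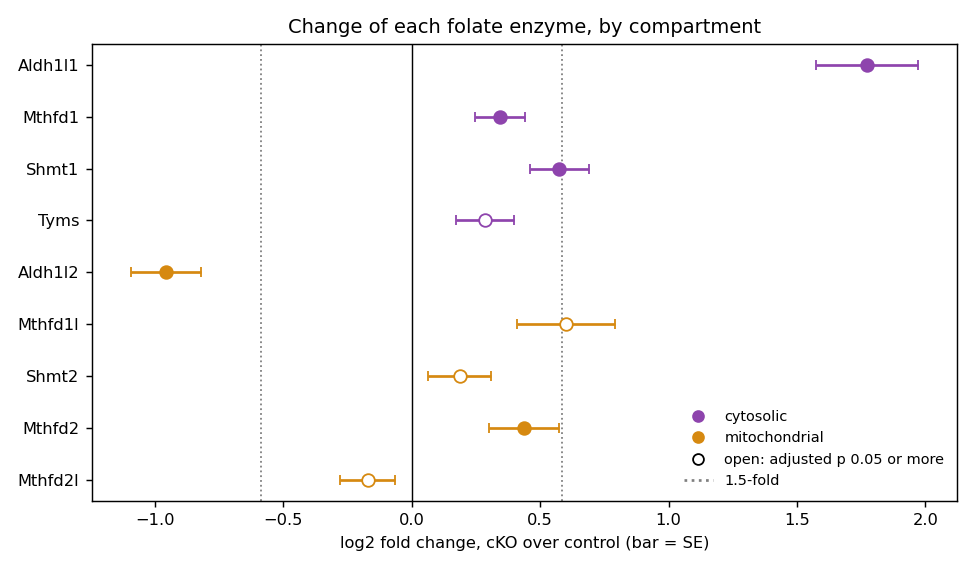
Fitted log2 fold change (cKO over control) of each folate enzyme with its SE as a bar, from 5 control and 4 cKO libraries, grouped by compartment, with filled points for an adjusted p under 0.05 and dotted lines at 1.5-fold. Aldh1l1 stands at 1.77 and Aldh1l2 at -0.96, and the other 7 enzymes lie between -0.17 and 0.60.

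The most divergent pair consisted of the formyl-tetrahydrofolate dehydrogenases. Aldh1l1 (ENSMUSG00000030088) lies on chromosome 6, 90486427 to 90600203, plus strand, in GRCm38, the build also called mm10, which all gene coordinates here follow. Its level in control replicates 1 to 5 was 1.08, 1.30, 1.11, 0.944 and 0.744 CPM. In cKO replicates 1 to 4 it was 3.17, 3.18, 4.49 and 3.39 CPM. Every cKO library was above every control, and cKO replicate 3 was the highest. The means were 1.04 ± 0.208 CPM (SD, n = 5) and 3.56 ± 0.629 CPM (SD, n = 4), a 3.42-fold difference (log2 fold change 1.77, SE 0.20, adjusted p = 9.88e-05, edgeR). This was a low-abundance transcript, resting on 23 to 45 reads per control library and 102 to 155 per cKO library. Within the Rps3a3-low libraries its log2 fold change was 1.60 (adjusted p = 0.0149), and when each library was left out in turn it ranged from 1.64 to 1.87.

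Aldh1l2 (ENSMUSG00000020256), on chromosome 10 from 83487450 to 83534140 on the minus strand, went the other way. Control replicates 1 to 5 were at 35.5, 38.0, 34.7, 38.2 and 39.0 CPM, and cKO replicates 1 to 4 were at 25.8, 19.7, 15.2 and 15.9 CPM. The controls lay close together, while the cKO libraries were all lower and more scattered. The mean was 37.1 ± 1.89 CPM (SD, n = 5) in controls and 19.1 ± 4.83 CPM (SD, n = 4) in cKO ventricles, 1.94-fold lower (log2 fold change -0.96, SE 0.14, adjusted p = 0.000568, edgeR). Within the Rps3a3-low libraries it was -0.86 (adjusted p = 0.0487). The strand setting of the counting is not given in the sources used here. D10Wsu102e, on the opposite strand and sharing 1056 exon bases with Aldh1l2, had a log2 fold change of 0.03 (adjusted p = 0.863). Gm15756, antisense to Aldh1l1 over 499 exon bases, reached at most 0.029 CPM in any library.

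Put side by side in each library, the log2 ratio of Aldh1l1 to Aldh1l2 (CPM plus a pseudocount of 0.5) was -4.51, -4.42, -4.45, -4.75 and -4.99 in control replicates 1 to 5. In cKO replicates 1 to 4 it was -2.84, -2.45, -1.65 and -2.08. Aldh1l2 thus remained the more abundant of the pair in every library, with the gap narrowed in all 4 cKO libraries. The mean ratio rose from -4.62 ± 0.24 to -2.26 ± 0.51 (SD), a difference of 2.37 on the log2 scale. The same difference was 2.15 within the Rps3a3-low libraries and 2.65 within the Rps3a3-high libraries, the latter with a single cKO library. Per kilobase of annotated exon, Aldh1l1 made up 3.07 to 5.39% of the summed pair in controls and 17.0 to 32.9% in cKO libraries. No p-value is given for these ratios, since the pair was chosen with results of these libraries known.

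**Figure D2:**
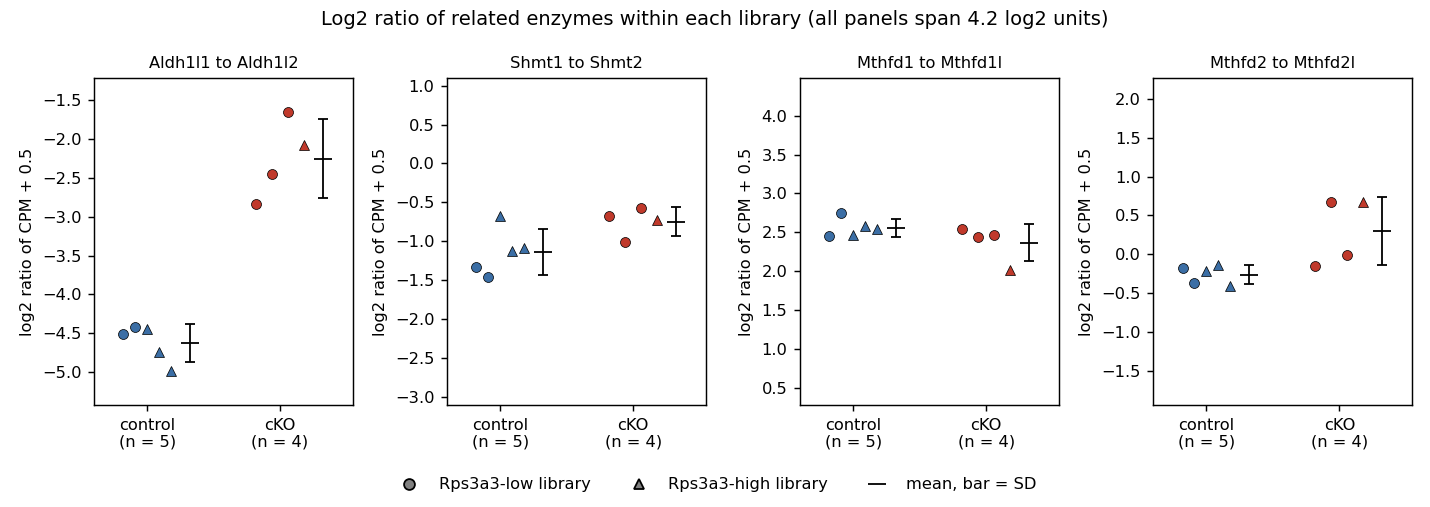
Log2 ratio of the cytosolic to the mitochondrial enzyme in each library, for the pairs Aldh1l1 to Aldh1l2, Shmt1 to Shmt2, Mthfd1 to Mthfd1l and Mthfd2 (mitochondrial, as is its partner) to Mthfd2l, with 1 point per library (circles for the Rps3a3-low and triangles for the Rps3a3-high set) and the group mean with SD. The Aldh1l1 to Aldh1l2 ratio separated the 5 controls from the 4 cKO libraries, and the ratios of the other pairs overlapped between groups.

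The serine hydroxymethyltransferases transfer a carbon from serine to tetrahydrofolate and release glycine. Shmt1 (ENSMUSG00000020534), the cytosolic form, lies on chromosome 11 from 60788104 to 60811718, minus strand. It was at 18.4, 16.0, 22.6, 16.0 and 17.2 CPM across control replicates 1 to 5, as against 22.6, 27.2, 29.3 and 28.3 CPM across cKO replicates 1 to 4. The groups touched at 22.6 CPM, between control replicate 3 and cKO replicate 1, and the other 3 cKO libraries lay clearly above. Its mean rose from 18.0 ± 2.73 to 26.9 ± 2.98 CPM (log2 fold change 0.57, SE 0.12, adjusted p = 0.00506, edgeR). At 1.49-fold it fell just short of the fold threshold. Shmt1 still passed the adjusted p with each library left out and within the Rps3a3-low libraries (0.62, adjusted p = 0.0495). Smcr8, which shares 184 exon bases with Shmt1, had a log2 fold change of 0.02 (adjusted p = 0.898).

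Shmt2 (ENSMUSG00000025403), the mitochondrial form on chromosome 10 from 127517123 to 127522444, minus strand, did not pass. Control replicates 1 to 5 were at 47.1, 44.7, 36.3, 35.6 and 37.2 CPM, and cKO replicates 1 to 4 at 36.5, 55.5, 43.7 and 47.2 CPM. The groups overlapped over most of their range, with means of 40.2 ± 5.34 and 45.7 ± 7.88 CPM (log2 fold change 0.19, SE 0.12, adjusted p = 0.341, edgeR). Among controls, the 2 Rps3a3-low libraries averaged 45.9 CPM and the 3 Rps3a3-high libraries 36.4 CPM. The log2 fold change of Shmt2 was 0.0806 without cKO replicate 2 and 0.28 without cKO replicate 1. In the Rps3a3-low libraries alone it was -0.02 (adjusted p = 0.971). The log2 ratio of Shmt1 to Shmt2 was -1.14 ± 0.30 in controls and -0.75 ± 0.19 in cKO libraries, and these values overlapped between groups.

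Mthfd1 encodes the cytosolic trifunctional enzyme that activates formate and interconverts formyl-, methenyl- and methylene-tetrahydrofolate. This gene (ENSMUSG00000021048), on chromosome 12 from 76255298 to 76319803, plus strand, was at 36.2, 30.6, 30.4, 31.7 and 33.2 CPM across control replicates 1 to 5. It was at 34.1, 46.2, 38.6 and 45.8 CPM across cKO replicates 1 to 4. All cKO libraries but replicate 1 exceeded the highest control. The means were 32.4 ± 2.38 and 41.2 ± 5.89 CPM (log2 fold change 0.34, SE 0.10, adjusted p = 0.0304, edgeR). The test was no longer passed when control replicate 2, 3, 4 or 5 or cKO replicate 2 or 4 was left out (log2 fold changes of 0.28 to 0.35, highest adjusted p = 0.0959), nor in the Rps3a3-low libraries (0.25, adjusted p = 0.440). In the Rps3a3-high libraries, with a single cKO library, the log2 fold change was 0.52.

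Mthfd1l, the mitochondrial relative of Mthfd1 that releases formate, lies on chromosome 10 from 3973118 to 4167081, plus strand (ENSMUSG00000040675). It was at 6.20, 4.14, 5.10, 4.88 and 5.30 CPM across control replicates 1 to 5, as against 5.44, 8.11, 6.55 and 10.9 CPM across cKO replicates 1 to 4. The groups overlapped through cKO replicate 1, and the cKO libraries were widely spread. Means were 5.12 ± 0.744 and 7.76 ± 2.39 CPM (log2 fold change 0.60, SE 0.19, adjusted p = 0.0519, edgeR). Leaving out control replicate 1 or cKO replicate 1 brought it past the threshold (adjusted p = 0.0414 and 0.0169), as did DESeq2 (0.0194), a term for the Rps3a3 library set (0.0219), upper-quartile scaling (0.0496) and no filter on low counts (0.0496). Without cKO replicate 4 the log2 fold change was 0.39 (adjusted p = 0.165), and in the Rps3a3-low libraries it was 0.38 (adjusted p = 0.485). In the Rps3a3-high libraries, with a single cKO library, it was 1.03. The log2 ratio of Mthfd1 to Mthfd1l was 2.56 ± 0.12 in controls and 2.37 ± 0.24 in cKO libraries, with overlap.

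The mitochondrial dehydrogenase and cyclohydrolase step is catalysed by MTHFD2, known from embryonic and proliferating cells, and by its homolog MTHFD2L. Mthfd2 (ENSMUSG00000005667), on chromosome 6 from 83305691 to 83325908, minus strand, was at 7.43, 7.24, 8.25, 8.52 and 7.83 CPM across control replicates 1 to 5. The cKO replicates 1 to 4 were at 8.31, 12.0, 9.18 and 13.0 CPM. Only cKO replicate 1 fell within the range of the controls, and cKO replicates 2 and 4 stood highest. Means were 7.86 ± 0.540 and 10.6 ± 2.24 CPM (log2 fold change 0.44, SE 0.14, adjusted p = 0.0481, edgeR). Mthfd2 no longer passed the adjusted p when any control, or cKO replicate 2 or 4, was left out (log2 fold changes of 0.32 to 0.47, highest adjusted p = 0.150). It also did not pass in the Rps3a3-low libraries (0.42, adjusted p = 0.276), with a term for the Xist level (adjusted p = 0.0735) or with no filter on low counts (0.0625).

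Mthfd2l (ENSMUSG00000029376), on chromosome 5 from 90931117 to 91021368, plus strand, was at 8.46, 9.47, 9.70, 9.44 and 10.5 CPM across control replicates 1 to 5. It was at 9.24, 7.32, 9.24 and 8.04 CPM across cKO replicates 1 to 4. The ranges overlapped, with a fitted log2 difference of -0.17 (SE 0.11, adjusted p = 0.321, edgeR). It was -0.11 without cKO replicate 2 and -0.06 in the Rps3a3-low libraries. The log2 ratio of Mthfd2 to Mthfd2l averaged -0.26 ± 0.12 in controls and 0.30 ± 0.43 in cKO libraries, and the 2 groups overlapped.

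Tyms, on chromosome 5 from 30058202 to 30073617, minus strand (ENSMUSG00000025747), encodes thymidylate synthase, which turns deoxyuridylate into thymidylate with methylene-tetrahydrofolate. It was at 16.6, 15.6, 17.4, 19.5 and 15.6 CPM across control replicates 1 to 5, as against 18.3, 22.9, 17.5 and 23.8 CPM across cKO replicates 1 to 4. As with Mthfd2, cKO replicates 2 and 4 were the highest. The other 2 cKO libraries lay within the range of the controls. For Tyms the log2 difference fitted was 0.28 (SE 0.11, adjusted p = 0.111, edgeR). It passed when a term for the Rps3a3 library set was added (0.35, adjusted p = 0.0375), and in none of the 9 fits that left out a library.

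**Figure D3:**
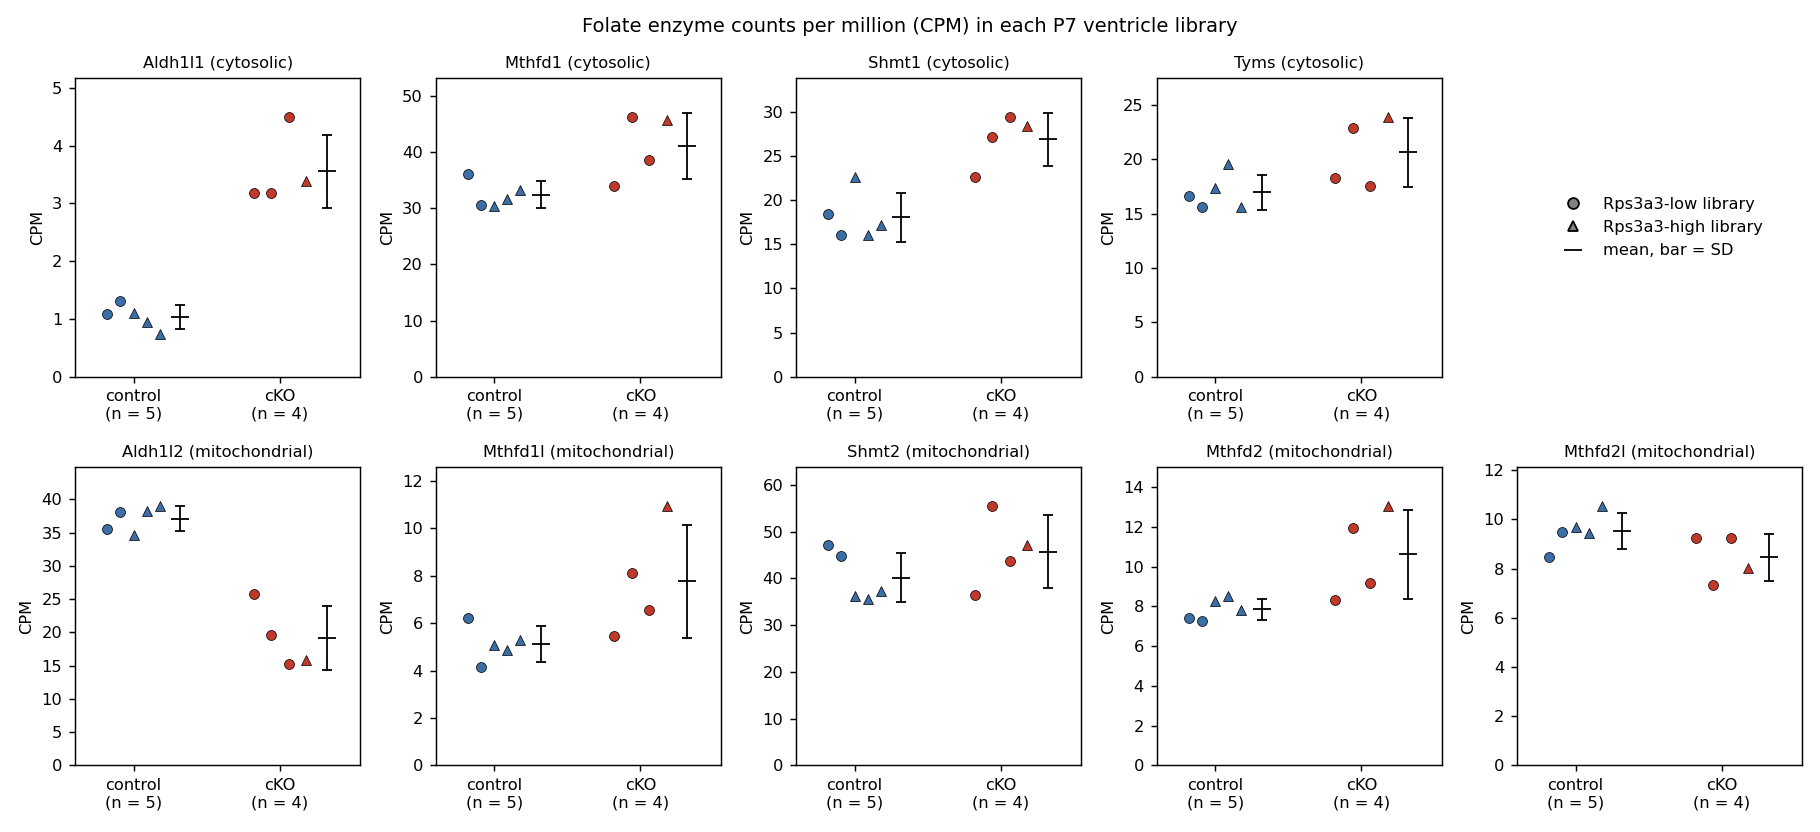
Level of each folate enzyme in CPM (linear axes from 0), with 1 point per library (circles for the Rps3a3-low and triangles for the Rps3a3-high set), for 5 control and 4 cKO libraries, and bars at the group means with SD. Aldh1l1 and Aldh1l2 separated with a clear gap in opposite directions, the Shmt1 groups touched at 22.6 CPM, and the groups of the other 6 enzymes overlapped.

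The promoters of the cytosolic enzymes that separated between groups, Aldh1l1 and Shmt1, are shown because both genes rose. Each window holds the 250 bases upstream of the start site in RefSeq (GRCm38.p6), read 5′ to 3′ on the strand of the gene, at chr6:90550543-90550792 (plus strand, 59.6% G or C) and chr11:60811266-60811515 (minus strand, 60.0% G or C). Capitals mark ATTGG, which reads CCAAT on the other strand.
Aldh1l1: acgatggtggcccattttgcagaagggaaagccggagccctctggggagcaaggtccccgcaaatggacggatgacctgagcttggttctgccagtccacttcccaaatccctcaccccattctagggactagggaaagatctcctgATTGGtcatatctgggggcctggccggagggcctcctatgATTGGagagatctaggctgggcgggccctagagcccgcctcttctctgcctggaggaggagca
Shmt1: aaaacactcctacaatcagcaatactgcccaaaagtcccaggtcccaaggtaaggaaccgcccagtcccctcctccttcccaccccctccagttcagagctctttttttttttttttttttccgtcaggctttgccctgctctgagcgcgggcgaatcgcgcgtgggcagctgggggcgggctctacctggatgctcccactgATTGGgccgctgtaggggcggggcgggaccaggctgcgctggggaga
Both windows lie inside the annotated span of their gene, which begins further upstream than the RefSeq start. Of the 9 enzymes, 8 had a RefSeq window, the exception being Aldh1l2. CCAAT, the box bound by NF-Y and chosen after these sequences were seen, occurred on either strand in 4 of the 8 windows (Aldh1l1, Shmt1, Mthfd1 and Mthfd2), and in 33.8% of 32851 mouse windows of the same length. GGAATG, a letter string bound by TEAD factors, occurred only in the Mthfd1 window among the 8 and in 12.6% of all windows. TGATGNAA, a composite site of ATF4, occurred in none of the 8 windows and in 3.45% of all. CACGTG, the E-box of MYC and related factors, occurred only in the Tyms window among the 8, and in 6.02% of all. None of these motifs overlapped another. A match describes the letters of the window and was not tested as a binding site.

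Levels of different enzymes were compared as CPM per kilobase of merged exons. In controls Shmt2 was the highest at a mean of 12.9, followed by Mthfd1 at 7.30, Aldh1l2 at 4.94, Shmt1 at 4.64, Tyms at 2.78, Mthfd2 at 2.25, Mthfd2l at 1.43, Mthfd1l at 1.16 and Aldh1l1 at 0.229 CPM per kilobase. Neighbours in this order were separated over the 5 controls, except that Aldh1l2 overlapped Shmt1 and Mthfd2l overlapped Mthfd1l. In cKO ventricles Shmt2 (14.7) and Mthfd1 (9.26) remained at the top and Aldh1l1 (0.788) at the bottom. The mean of Aldh1l2, 2.55 CPM per kilobase, was below those of Shmt1 (6.92), Tyms (3.39) and Mthfd2 (3.05). Over the 4 cKO libraries Aldh1l2 overlapped Tyms, Mthfd2 and Mthfd1l (1.75), and only Shmt1 lay apart from it among these. Summed over the enzymes, the cytosolic level was 13.8 to 15.8 CPM per kilobase in controls and 17.2 to 22.3 in cKO libraries, without overlap. The mitochondrial sum was 21.3 to 24.7 in controls and 20.2 to 26.8 in cKO libraries, so that the cytosolic share of the 9 enzymes went from 36.7 to 42.6% up to 44.9 to 48.2%. Mthfd1 and Shmt1 carry much of the cytosolic sum, and Shmt2 most of the mitochondrial sum.

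**Figure D4:**
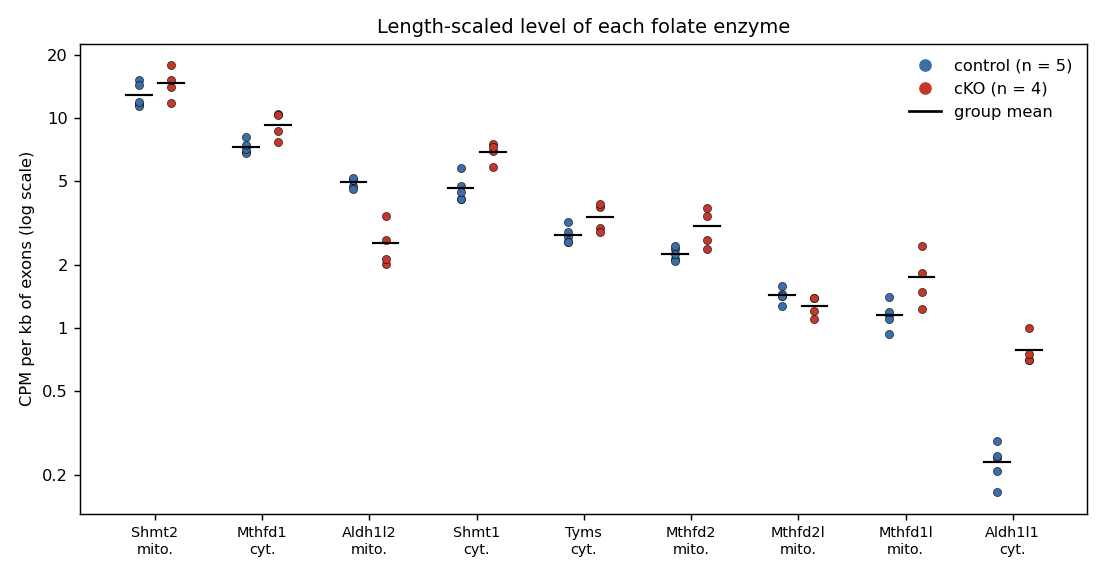
Level of each folate enzyme per length (CPM per kilobase of merged exons, log axis) in each control and cKO library, ordered by the control mean. Shmt2 is highest and Aldh1l1 lowest in both groups, and Aldh1l2 falls from a control mean of 4.94 to 2.55 in cKO ventricles.

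Within the groups, some enzymes varied together from library to library. As a description over the 9 libraries, deviations of log2 CPM from the group mean correlated at r = 0.90 for Tyms and Mthfd2, 0.89 for Mthfd1 and Mthfd1l, 0.80 for Mthfd1l and Mthfd2, and 0.77 for Mthfd1 and Shmt2. Mthfd2l ran against Shmt2 (r = -0.81) and Mthfd1 (r = -0.76). Aldh1l2 ran against Shmt1 (r = -0.72) and less so against Aldh1l1 (r = -0.53). The points share libraries, and with them depth and composition. Among 11011 genes with a mean of at least 5 CPM, the 3 with the highest r to Aldh1l2 in these deviations were Lmo4 (r = 0.98), Ptpn21 (0.94) and 2700081O15Rik (0.92), and to Aldh1l1 they were Mapre2 (0.95), Gimap5 (0.95) and Zdhhc16 (0.94). These are the extremes of many correlations over few libraries, among which high values can arise by selection.

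Genes that surround the 9 enzymes were followed in 9 lists, whose median log2 fold changes lay between -0.13 and 0.34. Of 10 tested genes for folate uptake, retention and reduction, 1 passed with a higher level, against 8.25% of all genes higher and 8.03% lower, and the list median was 0.18. That gene was Ftcd, which passes the formimino group from histidine breakdown to tetrahydrofolate. It was at 1.14, 1.51, 1.88, 0.881 and 0.744 CPM across control replicates 1 to 5, as against 4.35, 6.18, 4.63 and 4.58 CPM across cKO replicates 1 to 4. As with Aldh1l1, the level was low in controls and higher in every cKO library (log2 fold change 1.99, SE 0.25, adjusted p = 0.000253, edgeR). In the Rps3a3-low libraries it was 1.93 (adjusted p = 0.00598). Of 9 tested genes of the methionine cycle 1 fell, Mat2a, which makes S-adenosylmethionine (-0.25, adjusted p = 0.0242), and the median was 0.06. Of 9 tested genes of serine synthesis, glycine cleavage and choline breakdown, Sardh, which yields a folate-bound carbon from sarcosine, rose (0.51, adjusted p = 0.00345). Dld, a subunit shared by the glycine cleavage system and the ketoacid dehydrogenases, fell (-0.31, adjusted p = 0.0122), and the list median was 0.05. Psat1, a serine synthesis gene named after its value was seen, was at 0.52 (adjusted p = 0.0507 by edgeR), with overlap between groups. It passed by DESeq2, with a term for the Rps3a3 library set (adjusted p = 0.00116) and in 2 of 9 fits with a library left out.

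Thymidylate and deoxynucleotide supply had 4 of 10 genes higher and 0 lower, against 8.25% and 8.03% of all genes tested. The median log2 fold change of this list was 0.16. Tyms, which uses methylene-tetrahydrofolate to make thymidylate, was not in this list and did not pass (0.28, adjusted p = 0.111, edgeR). The rises in this list were therefore not a measure of the step that uses folate-bound carbon. The thymidine kinase Tk1 (0.75, adjusted p = 0.00923) and the deoxycytidylate deaminase Dctd (0.60, adjusted p = 0.00308) were called. The ribonucleotide reductase subunits Rrm2 (0.56, adjusted p = 0.00568) and Rrm1 (0.36, adjusted p = 0.0235) passed at smaller folds. De novo purine synthesis had 3 of 13 genes higher and 0 lower, beside the same 8.25% and 8.03%, with a median of 0.16. They were Atic, which uses formyl-tetrahydrofolate in the last steps to inosinate (0.37, adjusted p = 0.0152), Impdh1 (0.33, adjusted p = 0.0299) and Ppat (0.22, adjusted p = 0.0385). Gart, which also uses formyl-tetrahydrofolate and was named outside the rule for named genes, did not pass (0.08, adjusted p = 0.540). None of 4 tested genes of mitochondrial formyl-methionine use passed by edgeR, and 0 did so at an unadjusted p under 0.05 or by DESeq2. The list median was -0.13, and the largest difference was that of Pdf (-0.36, adjusted p = 0.351).

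Among 12 other NADPH and formate enzymes, Me3, a mitochondrial malic enzyme, fell (-0.59, adjusted p = 0.000205) and was called. Me2, also a mitochondrial malic enzyme and named outside the rule for named genes, went the other way. It was at 0.35 (adjusted p = 0.0727 by edgeR) and passed by DESeq2. The mitochondrial NAD kinase Nadk2 fell (-0.56, adjusted p = 0.00313), Idh1 rose (0.24, adjusted p = 0.0469), and the list median was 0.11. ATF4 is known to drive mitochondrial folate genes such as Mthfd2 and Aldh1l2 under stress. Of 8 tested genes of the ATF4 axis, the amino acid transporter Slc7a5 (0.53, adjusted p = 0.0327) and the factor Atf5 (0.42, adjusted p = 0.00711) rose, 0 fell and the median was 0.13. The list's farthest gene from 0 was Chac1, named after its value was seen, at -1.10 (adjusted p = 0.0521 by edgeR), which passed by DESeq2 and with a term for the Rps3a3 library set (adjusted p = 0.0196). Chac1 was low, at means of 1.03 CPM in controls and 0.479 CPM in cKO libraries, and the groups overlapped. It passed in 1 of 9 fits with a library left out. Atf4 itself, named for its role outside the rule for named genes, was at 0.03 (adjusted p = 0.787). Of 15 replication genes of S phase 5 rose and 0 fell, with a median of 0.34. For these last 3 lists too the share over all genes was 8.25% higher and 8.03% lower. The largest in the S phase list were the helicase subunits Mcm7 (0.48, adjusted p = 0.00433), Mcm3 (0.43, adjusted p = 0.0254) and Mcm5 (0.41, adjusted p = 0.0332) and the polymerase subunit Pola1 (0.38, adjusted p = 0.0358).

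Several of these genes no longer reached an adjusted p under 0.05 in fits with 1 library left out, while each of the passing genes kept its direction. Ftcd, Sardh, Dld, Tk1, Dctd, Rrm2, Me3, Nadk2, Atf5 and Mcm7 passed that threshold with any library left out. The fold of Dctd was below 1.5 without control replicate 2 or 4 or cKO replicate 4 (lowest log2 value 0.51). That of Me3 was below it without control replicate 1 or 2 or cKO replicate 2 or 4 (-0.56 to -0.58). Atic was lost without cKO replicate 4, Rrm1 without control replicate 2 or 5 or cKO replicate 4, and Mcm3 without control replicate 3 or 4 or cKO replicate 2 or 4. Mat2a was lost without control replicate 3 or 4 or cKO replicate 2, 3 or 4, Pola1 without control replicate 2, 3 or 5 or cKO replicate 3 or 4, and Impdh1 without control replicate 3, 4 or 5 or cKO replicate 2, 3 or 4. Mcm5 was lost without control replicate 2, 3, 4 or 5 or cKO replicate 2 or 4. Slc7a5 was lost without the same controls or without cKO replicate 2, 3 or 4. Idh1 passed only without control replicate 4 or cKO replicate 2, and Ppat only without cKO replicate 3. Over the 9 fits the log2 fold changes ran from 0.36 to 0.53 for Mcm3, 0.38 to 0.66 for Slc7a5, 0.19 to 0.29 for Idh1 and 0.18 to 0.26 for Ppat. Of these passing genes, only Ftcd and Me3 also passed in the Rps3a3-low libraries alone. There the log2 fold change was -0.34 for Nadk2, 0.33 for Slc7a5 and 0.22 for Impdh1.

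**Figure D5:**
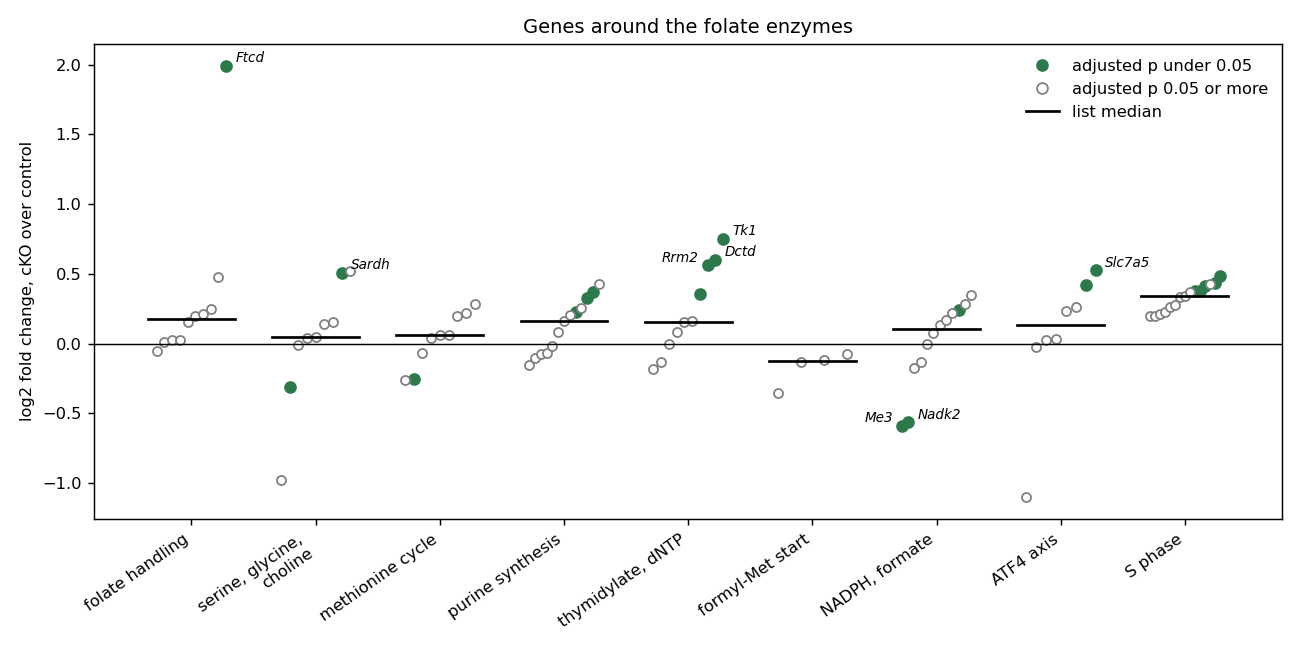
Log2 fold change (cKO over control) of each tested gene in 9 lists of surrounding pathways, with 1 point per gene, those past an adjusted p of 0.05 filled, and a bar at each list's median. Ftcd at 1.99 is the farthest from 0, and all 15 S phase genes lie above 0, with a median of 0.34, against 51.5% of all tested genes above 0.

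Marker genes of the cell types that the samples could hold were summed in each library. The shares of all tested genes to set beside the marker counts were 8.25% (higher) and 8.03% (lower) by the adjusted p of edgeR, 15.2% and 14.5% by an unadjusted p under 0.05, and 9.39% and 9.49% by DESeq2. Ventricular cardiomyocyte markers summed to 49099 to 58573 CPM in controls and 44112 to 49137 CPM in cKO libraries, and 1 of 7, Myl2, fell (-0.43, adjusted p = 0.00124, edgeR). All 7 had log2 fold changes below 0, whereas 51.5% of all tested genes lay above 0. Of the 7, 3 (Myl2, Tnnt2 and Tnni3) were lower at an unadjusted p under 0.05 and by DESeq2. Of 7 fibroblast markers 3 rose (Col1a1, Col1a2 and Tcf21), with sums of 5587 to 6902 CPM in controls and 6762 to 8020 CPM in cKO libraries. The 6 macrophage markers summed to 81.6 to 140 CPM and 103 to 196 CPM, with 0 past the test in edgeR, 1 at an unadjusted p under 0.05 and 1 by DESeq2, Lyz2, named after its value was seen. All 6 lay above 0, with a median log2 fold change of 0.47, as did all 6 erythroid markers, with a median of 0.32. Glial markers, of interest because Aldh1l1 is abundant in astrocytes, summed to 32.5 to 72.0 CPM in controls and 20.8 to 31.4 CPM in cKO libraries, and 1 of 5 tested, Aqp4, fell (-1.44, adjusted p = 0.0111). Hepatocyte markers, relevant to both Aldh1l1 and Ftcd, summed to 0.629 to 3.93 CPM and 0.954 to 1.62 CPM. Hnf4a was at 0 in 8 of 9 libraries, whereas Ttr and Cps1 had reads in every library. Ttr was at 0.440 to 1.41 CPM in controls and 0.875 to 1.23 CPM in cKO libraries (log2 fold change 0.28, adjusted p = 0.621, edgeR). Adipocyte markers summed to at most 0.808 CPM in controls and to 5.91 CPM in cKO replicate 3, the library with the highest Aldh1l1, and to at most 0.218 CPM in the other cKO libraries. Of the 5.91 CPM, 4.92 CPM came from Ucp1 alone. In the remaining lists, 1 of 6 endothelial markers (Tek) and 1 of 4 epicardial markers (Wt1) fell, 1 of 3 tested atrial markers (Myl7) rose, and 0 of 5 mural, 0 of 6 erythroid, 0 of 3 lymphocyte and 0 of 3 skeletal muscle markers passed in edgeR. At an unadjusted p under 0.05 these last lists held 2, 1, 0 and 3 genes, all higher, and DESeq2 passed 0, 1, 0 and 1. The part of cell composition in the differences of the folate enzymes was not tested.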

How the data were processed

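RNA from P7 ventricles of 5 control and 4 cKO mice was sequenced as stranded mRNA libraries. The authors deposited raw read counts per Ensembl gene, and the submitters' processing notes name STAR 2.4.2a and HTSeq 0.6.1 with mm10. The annotation release and strand setting are not given in the sources used here. The study's methods state 4 controls, whereas a figure legend of the study and the labels give 5, and all 5 were used.

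Symbols and exon lengths came from GENCODE M21 (36429 of 38293 identifiers matched, holding 99.82% of counts). Genes were filtered with filterByExpr (minimum count 10), scaled by TMM and tested with edgeR 4.0.16 (robust quasi-likelihood F test) in R 4.3.3, with Benjamini-Hochberg adjustment over 15318 genes. Calls required an adjusted p under 0.05 and a fold above 1.5. SE is the log2 fold change divided by the square root of F. CPM uses TMM-scaled totals. DESeq2 1.42.0, other scalings, filters, covariates and libraries left out were alternatives. No 2 libraries of a group were duplicates (lowest chi-square per degree of freedom 9.77). The enzymes, gene lists and the Rps3a3 split were chosen with earlier results of these data known. Named genes were the 9 enzymes, per list up to 4 passing genes of largest change (or the largest, where none passed), the 3 genes most like Aldh1l1 and Aldh1l2, and Arid1a, Rps3a3 and Xist. Marker genes that passed are named in addition, as are a few genes for context.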

Additional observations from a re-analysis of the deposited data

Results flagged for a closer look

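Aldh1l1 in cKO replicate 3, at 4.49 CPM, stood apart from the other 3 cKO libraries, which lay between 3.17 and 3.39 CPM. Its gap to the nearest library was 0.836 of the range of the group. This was 1 value among 20 groups of values checked, and how often chance alone would set a value apart was not tested. Without that library the log2 fold change of Aldh1l1 was 1.64 (adjusted p = 0.000591, edgeR).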

How the results depend on the processing

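Aldh1l1 passed the adjusted p and the fold threshold under every alternative run with a test, and Aldh1l2 under all but the test against a fold of 1.5 (glmTreat). Of the 9 enzymes, 2 were called here, 4 with upper-quartile scaling, 4 with a term for the Rps3a3 library set, 1 with glmTreat and 2 to 4 with a library left out. The 4 came without cKO replicate 1, when Mthfd1l and Shmt1 were added. At an adjusted p under 0.05, 5 passed, 3 in the Rps3a3-low libraries and 3 to 6 with a library left out. Over all genes, 1030 were called, 620 in the Rps3a3-low libraries, 330 with glmTreat and 909 to 1171 with a library left out. The mitochondrial median of 0.19 was -0.0199 in the Rps3a3-low libraries, set by Shmt2 at -0.0199, and 0.37 in the Rps3a3-high libraries, and Arid1a was at -0.33 (adjusted p = 0.0822) in the former. In the Rps3a3-high libraries, with a single cKO library, Aldh1l1 was at 1.45 and Aldh1l2 at -1.20. The Aldh1l1 to Aldh1l2 ratio difference of 2.37 was 1.78 with a pseudocount of 2. The causes were not tested. Replicate numbers are shared by the groups but did not pair the samples (correlations of same-numbered libraries from -0.05 to 0.30). With the number as a block, 3 enzymes passed (Mthfd1 at 0.0946 and Mthfd2 at 0.0978 did not), 2 were called, and 888 genes were called. The 102 to 155 reads behind Aldh1l1 in cKO libraries and 23 to 45 in controls limit its precision.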
